A study of Mus musculus with 32 samples.

Results

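The genes described here are 40 genes of the TGF-beta and BMP pathways, with the extracellular antagonist Grem1 among them. They were taken from a list of symbols, and 40 of the 40 listed were found among the 54429 gene symbols of the count table. The study asked how loss of the DNA methyltransferase Dnmt1 alters endothelial cells (ECs) and their response to inflammatory cytokines. Veravec mouse lung ECs, an established cell line, received control siRNA (si-control) or, in 2 rounds, siRNA against Dnmt1 (si-dnmt), and were then left without cytokine or given TNF, IFN (interferon gamma) or TNF + IFN before bulk RNA sequencing. TNF was given at 10 ng/mL and IFN at 1000 U/mL, each for 16 h, which makes 8 groups of 4 libraries. The knockdown lowers Dnmt1 without deleting it, every library comes from the same cultured line, and only RNA was measured, at a single time.

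TGF-beta and BMP ligands are secreted dimers that bind pairs of type I and type II serine/threonine kinase receptors, and the type I receptor then phosphorylates receptor SMADs. SMAD2 and SMAD3 carry the TGF-beta and activin signal, SMAD1, SMAD5 and SMAD9 carry the BMP signal, both sets act with the common partner SMAD4, and SMAD6 and SMAD7 are inhibitors that the pathway itself induces. In endothelium the BMP branch, through the receptors ALK1 (Acvrl1) and BMPR2 and the target genes Id1, Id2 and Id3, is known for its part in vessel quiescence and in hereditary vascular disease, and TGF-beta is known for matrix production and endothelial-to-mesenchymal transition.

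Because the siRNA target methylates CpG dinucleotides, the promoters of 4 members that differed between the siRNAs are shown, for the antagonist gene, for a receptor SMAD gene with lower levels in si-dnmt and for an inhibitory and a receptor SMAD gene with higher levels. Each sequence holds the 250 bases before the RefSeq start of the gene, from the GRCm38.p6 build, 5′ to 3′ in the direction of the gene, with CpG dinucleotides in capitals.
Grem1, chr2:113758649-113758898, - strand: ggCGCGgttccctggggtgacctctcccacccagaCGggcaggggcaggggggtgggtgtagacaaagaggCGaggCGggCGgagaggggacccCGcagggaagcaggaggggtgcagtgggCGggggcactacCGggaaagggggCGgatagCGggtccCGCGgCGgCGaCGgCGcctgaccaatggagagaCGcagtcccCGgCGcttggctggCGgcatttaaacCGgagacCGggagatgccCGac
Smad5, chr13:56702760-56703009, + strand: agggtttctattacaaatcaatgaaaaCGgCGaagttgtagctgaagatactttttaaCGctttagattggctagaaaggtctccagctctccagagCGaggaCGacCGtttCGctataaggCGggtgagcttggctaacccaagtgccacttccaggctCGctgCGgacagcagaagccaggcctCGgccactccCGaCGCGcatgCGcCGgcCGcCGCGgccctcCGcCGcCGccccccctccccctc
Smad6, chr9:64022060-64022309, - strand: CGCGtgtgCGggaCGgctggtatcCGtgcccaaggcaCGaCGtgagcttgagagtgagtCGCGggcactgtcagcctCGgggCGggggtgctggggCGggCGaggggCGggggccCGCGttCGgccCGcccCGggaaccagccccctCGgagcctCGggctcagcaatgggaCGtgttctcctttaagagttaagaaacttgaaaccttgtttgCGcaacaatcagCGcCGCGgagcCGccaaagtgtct
Smad9, chr3:54755332-54755581, + strand: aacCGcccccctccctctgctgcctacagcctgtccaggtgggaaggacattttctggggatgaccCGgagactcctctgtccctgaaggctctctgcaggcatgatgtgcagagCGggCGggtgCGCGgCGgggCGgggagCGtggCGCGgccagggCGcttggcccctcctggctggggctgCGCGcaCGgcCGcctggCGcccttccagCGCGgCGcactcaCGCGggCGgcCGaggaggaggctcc
These windows held 24 CpG for Grem1, 22 for Smad5, 27 for Smad6 and 24 for Smad9. Promoters were matched for 29 of the 40 members in 36 windows, since a gene can have more than 1 start, and those of the other 11 members were not read here. The median was 22 CpG over the 36 windows and 6 over the 32851 windows of all 27025 genes in the reference. A CpG-rich window, with a GC content of at least 50% and an observed to expected CpG ratio of at least 0.6, was found for 69.4% of the members' windows and for 31.0% of all windows. CpG-rich windows made up 5 of 6 windows of members with higher levels in si-dnmt, 5 of 7 windows of those with lower levels and 15 of 23 windows of those with neither. The 7 windows came from 5 genes, and several of them were neighbouring starts of Smad5. These shares of windows were not tested against each other. The letters GGCGCC, known as an element of BMP SMADs occurred in 27.8% of the members' windows and in 9.59% of all windows, and CAGAC, the SMAD box, in 47.2% and 42.2%. The letters TTCNNNGAA, the element that STAT factors bind, occurred in 0 of the members' windows and in 7.02% of all windows. Each motif was searched on both strands. GGCGCC itself contains a CpG, and the members' windows held more CpG than all windows. Windows of like CpG content were not compared, so the motif shares are a description. Methylation was not measured. A match of letters is not a binding site.

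Dnmt1 RNA was lower in all 16 si-dnmt libraries than in all 16 si-control libraries, with log2 fold changes of −3.76, −3.87, −3.95 and −4.08 without cytokine, with TNF, with IFN and with TNF + IFN. Total counts ran from 17362546 to 33500030 per library. Replicates 3 and 4 stood apart from replicates 1 and 2 in every group, so values for each of these sets alone are given where they matter. All 8 endothelial markers examined were above 3 counts in every group, with summed levels of 2670 to 8260 CPM (counts scaled to library size). Lum among 6 fibroblast markers and Cspg4, Rgs5 and Des among 7 pericyte and smooth muscle markers were at 3 counts or fewer. The summed level of the 7 pericyte and smooth muscle markers, which include Acta2, ran from 7.9 to 70.5 CPM over the si-control libraries and from 40.2 to 232 CPM over the si-dnmt libraries, and the summed level of the 8 endothelial markers was lower in groups with TNF. The 6 fibroblast markers summed to 170 to 207 CPM in unstimulated si-control, 230 to 430 CPM in si-control + IFN and 115 to 160 CPM in unstimulated si-dnmt. Of 6 leukocyte markers 5, with Ptprc among them, were at 3 counts or fewer in every group. The sum of these 6, which rests on Lyz2, ran from 43.6 to 133 CPM in unstimulated si-control, from 12.7 to 71.4 CPM in unstimulated si-dnmt and from 1.21 to 7.86 CPM in si-dnmt + TNF + IFN. Their part in the results was not tested, and in bulk samples fewer cells of a type and less RNA per cell cannot be told apart.

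The pathway was expressed at each of its steps in unstimulated si-control cells. On a scale of CPM per kilobase of exon, which allows levels of different genes to be compared, the type II TGF-beta receptor gene Tgfbr2 had the highest mean level of the 40 (88.5 CPM per kb), followed by the ligand gene Bmp4 (68.2), the activin antagonist gene Fst (65.6), Id3 (63.1) and Acvrl1 (52.7). Of the 3 TGF-beta ligand genes, Tgfb1 was highest at 17.1 CPM per kb, followed by Tgfb2 at 5.74 and Tgfb3 at 3.07. Among the BMP receptor SMAD genes, Smad1 (19.7 CPM per kb) and Smad5 (17.9) lay far above Smad9 (0.409). Grem1 ranked 36 of 40 at 1.07 CPM per kb, and the type I receptor gene Bmpr1a (0.138) and Bmp2 (0.00961) were lowest.

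Members were called in both directions with the Dnmt1 knockdown. Without cytokine, Grem1, the secreted BMP antagonist, and Smad1 and Smad5 were lower in si-dnmt, whereas Smad9, the third BMP receptor SMAD gene, and the inhibitory SMAD genes Smad6 and Smad7 were higher. A gene was called changed at an adjusted p (padj) under 0.05 in the edgeR quasi-likelihood F test over all 15254 genes tested. Without cytokine 6 members were higher and 5 lower of 40, beside 9.58% of all genes tested higher and 8.88% lower. With TNF 2 were higher and 6 lower (10.4% and 9.59% of all genes), with IFN 6 were higher and 4 lower (10.8% and 9.54%), and with TNF + IFN 2 were higher and 3 lower (8.97% and 8.72%). Smad5 was the only member called in all 4 cytokine states. In all, 8 members were called higher in at least 1 state and 8 were called lower in at least 1. None was called in both directions and 24 were called in none. The share of all genes called in at least 1 of these 4 states was not computed, so these counts are a description. They include Grem1, which had few counts in si-dnmt with a cytokine and passed the filter on low counts through the groups where it is high. The median log2 fold change of the members was 0.01 without cytokine, −0.10 with TNF, 0.11 with IFN and −0.05 with TNF + IFN, and that of all genes tested lay between −0.01 and 0.01. With the replicate number as a block in the fit, the members called rose from 8 to 21 with TNF, from 10 to 18 with IFN and from 5 to 14 with TNF + IFN. The share of all genes called in either direction rose with the block too, from 20% to 33.4%, from 20.3% to 34.5% and from 17.7% to 30.8%. Leaving out 1 library gave 7 in place of 11 members without cytokine (without si-dnmt replicate 3), 3 to 5 in place of 8 with TNF (without si-control + TNF replicate 2 or si-dnmt + TNF replicate 3 or 4) and 2 or 3 in place of 5 with TNF + IFN (without replicate 3 or 4 of either siRNA). The share of all genes called fell in these fits too, from 18.5% to 12.8% without cytokine. With TNF it fell from 20% to between 14.4% and 16.2%. With TNF + IFN it fell from 17.7% to between 13.4% and 14.1%.

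With TNF and with TNF + IFN more members were called lower than higher under either siRNA. With TNF + IFN in si-control, the receptor genes Tgfbr2, Bmpr2 and Acvr2b, the ligand genes Bmp4 and Bmp6, Id1, Id2, Id3 and Grem1 were called lower. Bmp2, Tgfb2, the latent TGF-beta binding protein genes Ltbp1 and Ltbp2 and the ubiquitin ligase gene Smurf1 were called higher there, as was Acvr1. In si-dnmt these named genes were called with TNF + IFN in the same directions, except Id3 and Acvr1, which were not called. Among the other members, Inhbb, Ltbp3, Bmper and Smad9 were called lower with TNF + IFN under both siRNAs. Tgfb3, Ltbp4, Smad2 and Smad5 were called lower in si-control only, and Tgfbr1, Acvr2a and Smad3 in si-dnmt only. Bmp2, counted among the members called higher, had few unstimulated counts and passed the filter on low counts through the groups where it is high. Grem1 and Smad9, counted among those called lower, had few counts in some groups with cytokine and passed the filter in the same way. In si-control 4 members were higher and 11 lower with TNF (16.1% and 14.6% of all genes), 3 were higher and 5 lower with IFN (8.56% and 5.92%), and 6 were higher and 17 lower with TNF + IFN (23.5% and 21.6%). In si-dnmt 4 were higher and 12 lower with TNF (11.5% and 9.54%), 2 were higher and 3 lower with IFN (6.66% and 2.35%), and 5 were higher and 15 lower with TNF + IFN (21.3% and 18.9%). Grem1 and Bmpr2 were called lower with each of the 3 cytokine treatments under both siRNAs, and Ltbp1 was called higher with each in si-dnmt. The 3 treatments share the libraries without cytokine within each siRNA. With the replicate block the members called rose from 8 to 18 for IFN in si-control and from 5 to 14 for IFN in si-dnmt, beside a rise from 14.5% to 25.4% and from 9.01% to 19% of all genes. Without si-control + IFN replicate 1 the number for IFN in si-control was 5, beside a fall from 14.5% to 11.7% of all genes.

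**Figure D1:**
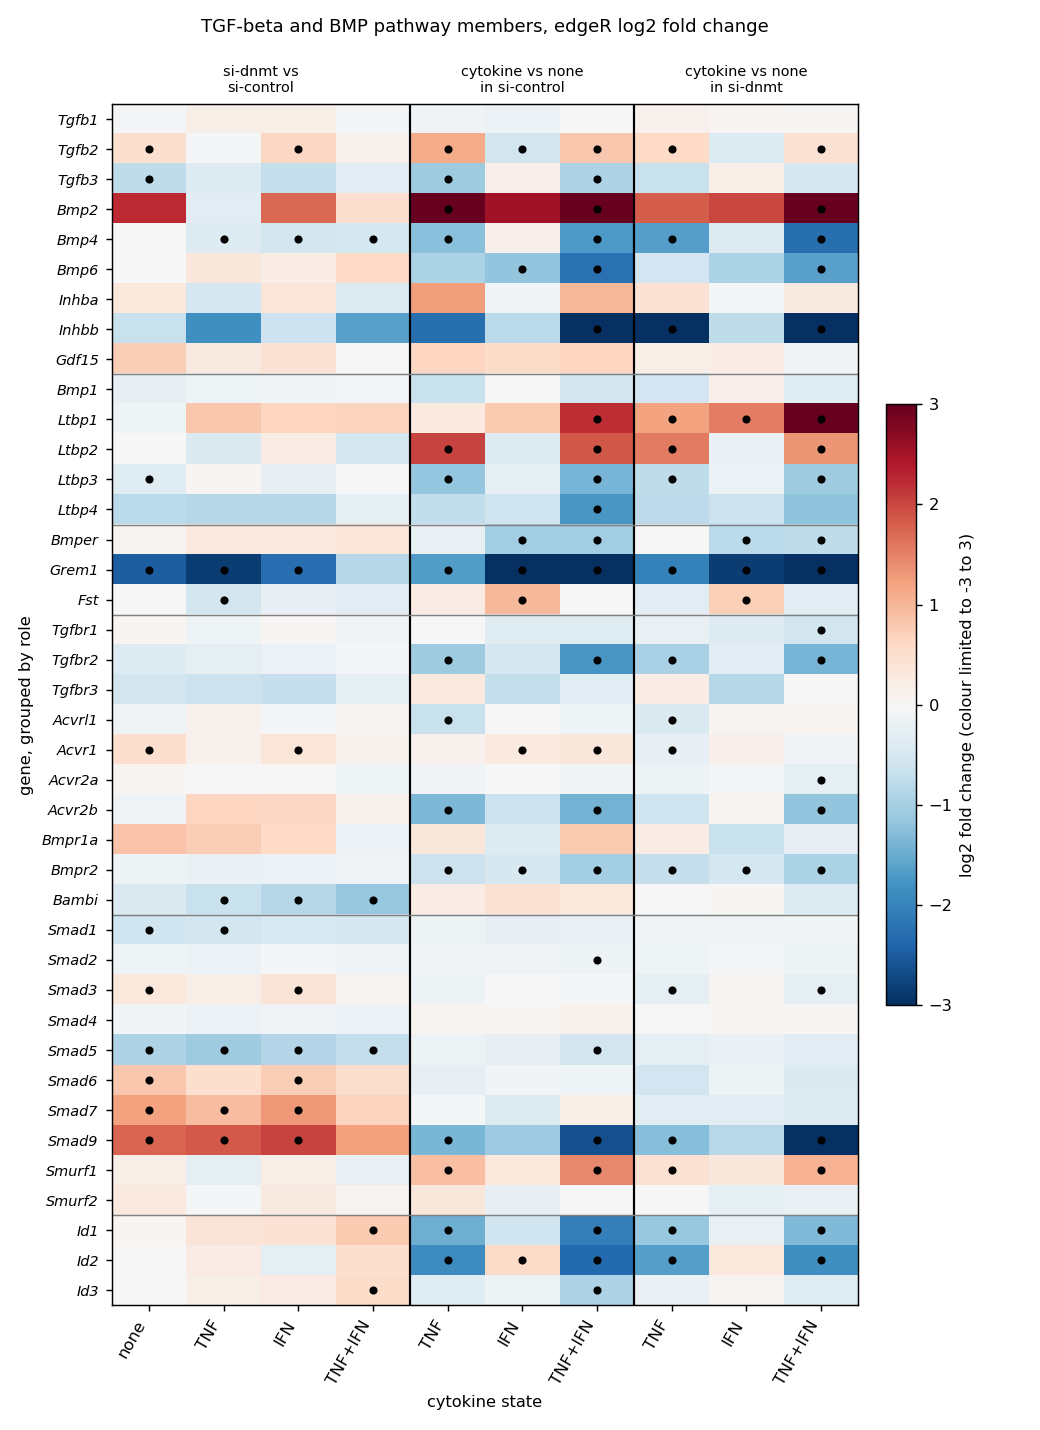
Log2 fold change (colour, limited to −3 to 3) of the 40 members, in rows by role, in the 4 comparisons of si-dnmt with si-control and the 6 of a cytokine with none, in columns. Black dots mark adjusted p under 0.05. Smad5 carries a dot in each of the 4 siRNA columns, and Grem1 and Bmpr2 carry dots in each of the 6 cytokine columns.

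No member passed the test of a difference in cytokine response between the siRNAs. The interaction of siRNA and cytokine was called in 0 of 40 members for TNF (0.0328% of all genes), for IFN (0.0459%) and for TNF + IFN (0.531%) by edgeR. At an unadjusted p under 0.05 there were 6, 1 and 6 members, beside 6.63%, 2.65% and 9.04% of all genes. The DESeq2 Wald test called 0, 0 and 1 members (0.65%, 0.254% and 1.47% of all genes). With the replicate block 0, 0 and 2 members were called (0.892%, 0.387% and 4.18% of all genes), the latter being the type I receptor gene Acvr1 and Bmp6 for TNF + IFN. Without si-dnmt replicate 1 the number for TNF + IFN was 1 (0.625% of all genes). In replicates 1 and 2 alone 3, 3 and 4 members were called (1.97%, 1.8% and 4.86% of all genes), and in replicates 3 and 4 alone 13, 1 and 11 (8.04%, 1.01% and 11.8%), where the test rests on 2 libraries a group. A call under 1 siRNA and not under the other is not a tested difference below.

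**Figure D2:**
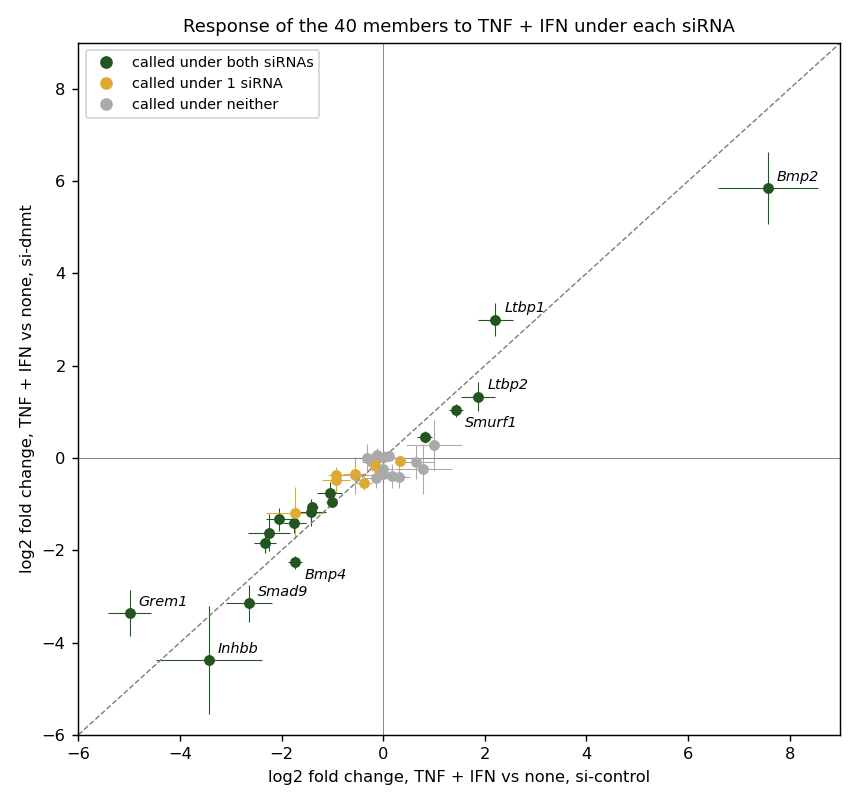
Log2 fold change of TNF + IFN against no cytokine for each member in si-control (x axis) and si-dnmt (y axis), with standard errors as bars and the line of equal response dashed. Colours mark members called under both siRNAs, under 1 or under neither, and Bmp2, whose fitted change in si-control rests on 3 unstimulated counts, lies at the upper right and Grem1 and Inhbb at the lower left.

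Grem1, which encodes the secreted antagonist Gremlin 1 that binds BMP2 and BMP4, was lower with the knockdown in 3 of the 4 cytokine states and with every cytokine treatment. Without cytokine, Grem1 stood at 4.08, 6.95, 3.16 and 3.59 CPM in replicates 1 to 4 of si-control and at 1.02, 1.24, 0.307 and 0.625 CPM in si-dnmt. Grem1 with TNF stood at 1.42, 1.17, 1.43 and 1.53 CPM in si-control and 0.275, 0.141, 0.231 and 0.103 CPM in si-dnmt, and with IFN at 0.504, 0.312, 0.6 and 0.702 CPM and 0.167, 0.0841, 0.138 and 0.0577 CPM. With both cytokines, Grem1 stood at 0.0961, 0.208, 0.185 and 0.0529 CPM in si-control and 0.0615, 0.06, 0.116 and 0.0494 CPM in si-dnmt. The 4 values of si-dnmt lay below the 4 of si-control without cytokine, with TNF and with IFN, and overlapped them with TNF + IFN. Its log2 fold change with si-dnmt was −2.48 ± 0.33, padj = 5.14e-06 without cytokine, and −2.84 ± 0.40, padj = 9.91e-06 with TNF (each value ± the standard error of the fit). With IFN, where 39 counts in si-control faced 10 in si-dnmt, the counts scaled for depth were 5.18 times higher in si-control (95% exact Poisson interval 2.54 to 11.6, counting error only), and the fit gave padj = 0.00085. With TNF + IFN, where 10 counts faced 5, this ratio was 1.88 (interval 0.584 to 6.99), and the fit gave padj = 0.459. In si-control Grem1 fell with TNF (−1.67 ± 0.32, padj = 0.000213), with IFN (−3.05 ± 0.36, padj = 1.67e-07) and with TNF + IFN (−4.99 ± 0.42, padj = 1.14e-10). In si-dnmt it fell too with TNF (−2.03 ± 0.41, padj = 0.000673), and the scaled counts without cytokine were 7.46 times those with IFN (interval 3.85 to 16.2) and 10.7 times those with TNF + IFN (4.4 to 33.9). Counts were few in si-dnmt + TNF (16 over 4 libraries) and in the groups with IFN or TNF + IFN of both siRNAs. Grem1 passed the filter on low counts through the groups where it is high. Its folds and padj in comparisons with these groups of few counts are therefore a description only. Both sets of replicates gave the direction, since the siRNA difference without cytokine was −2.26 in replicates 1 and 2 alone and −2.85 in replicates 3 and 4 alone.

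Of the other antagonists, Fst encodes follistatin, which binds and neutralises activins. It rose with IFN in si-control (0.97 ± 0.18, padj = 0.000218) and in si-dnmt (0.71 ± 0.18, padj = 0.00789) and was called lower in si-dnmt with TNF (−0.56 ± 0.18, padj = 0.0264). That siRNA difference was 0.12 in replicates 1 and 2 alone and −1.10 in replicates 3 and 4 alone, so it had opposite signs in the sets. For Fst, leaving out 1 library ended the call of si-dnmt against si-control with TNF (without replicate 3 or 4 of si-control + TNF or replicate 3 or 4 of si-dnmt + TNF, padj up to 0.177). Bmper encodes a secreted BMP-binding protein that modulates BMP signalling in endothelium. Without cytokine, Bmper stood at 6.99, 5.99, 8.31 and 8.16 CPM in replicates 1 to 4 of si-control and at 6.72, 7.40, 8.50 and 8.55 CPM in si-dnmt. Bmper with TNF stood at 4.08, 4.22, 7.35 and 9.75 CPM in si-control and 5.58, 7.13, 9.69 and 8.89 CPM in si-dnmt, and with IFN at 2.30, 3.64, 3.87 and 4.54 CPM and 4.33, 3.53, 5.43 and 4.41 CPM. With both cytokines, Bmper stood at 2.98, 3.54, 4.07 and 3.65 CPM in si-control and 3.14, 3.84, 5.84 and 5.43 CPM in si-dnmt. All 8 libraries with IFN in si-control lay below the 4 without cytokine, with log2 fold changes of −1.04 ± 0.25, padj = 0.00387 for IFN and −1.05 ± 0.25, padj = 0.000975 for TNF + IFN. In si-dnmt Bmper fell as well, with −0.82 ± 0.24, padj = 0.0293 for IFN and −0.77 ± 0.24, padj = 0.0126 for TNF + IFN. For Bmper, leaving out 1 library ended the call of IFN in si-dnmt (without replicate 3 or 4 of si-dnmt or replicate 1, 2 or 4 of si-dnmt + IFN, padj up to 0.117) and TNF + IFN in si-dnmt (without replicate 1 of si-dnmt + TNF + IFN, padj up to 0.0583).

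**Figure D3:**
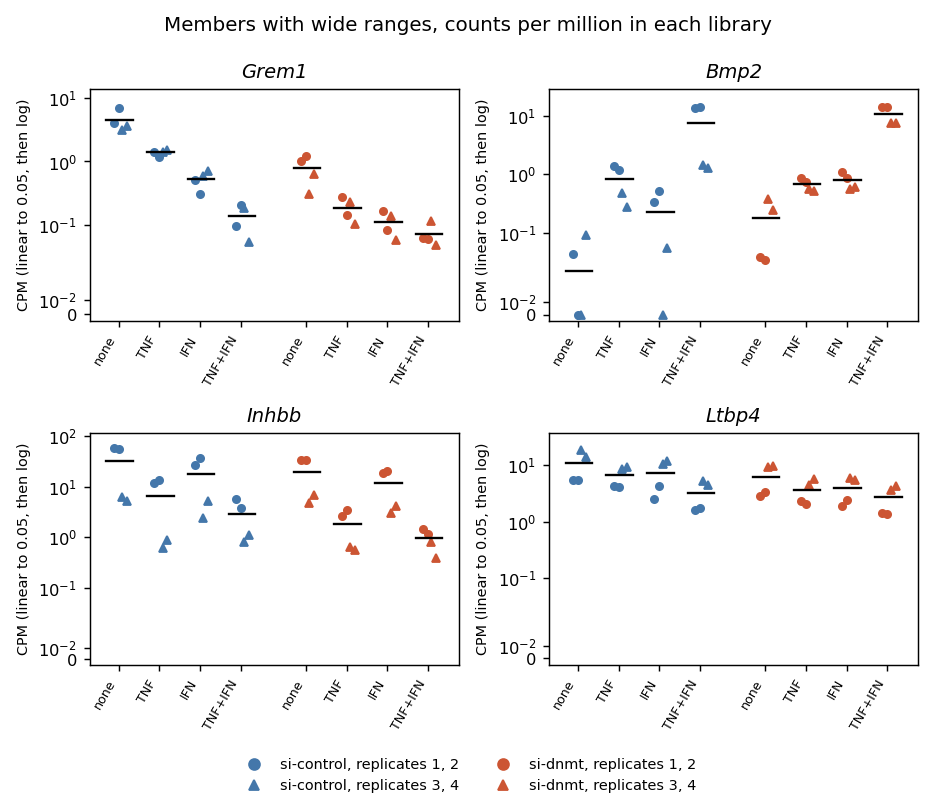
CPM of Grem1, Bmp2, Inhbb and Ltbp4 in each library of the 8 groups, on a log axis that is linear below 0.05, with circles for replicates 1 and 2, triangles for replicates 3 and 4 and a line for the group mean. Grem1 declines from 3.16 to 6.95 CPM in unstimulated si-control to under 0.21 CPM with TNF + IFN, and Inhbb in unstimulated si-control lies at 58.6 and 56.2 CPM for the circles and at 6.29 and 5.11 CPM for the triangles.

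Among the TGF-beta ligand genes, Tgfb2 and Tgfb3 changed and Tgfb1 did not pass the test in any comparison. Without cytokine, Tgfb2 stood at 37.7, 33.8, 28.1 and 33.2 CPM in replicates 1 to 4 of si-control and at 38.9, 45.6, 54.6 and 46.5 CPM in si-dnmt. Tgfb2 with TNF stood at 73.4, 74.6, 76.04 and 64.8 CPM in si-control and 71.5, 72.8, 65.8 and 68.9 CPM in si-dnmt, and with IFN at 20.9, 19.97, 26.5 and 23.2 CPM and 34.1, 26.8, 41.6 and 37.6 CPM. With both cytokines, Tgfb2 stood at 45.7, 48.3, 74.3 and 65.2 CPM in si-control and 70.5, 62.9, 63.1 and 58.1 CPM in si-dnmt. Tgfb2 was higher in all 4 si-dnmt libraries than in all 4 si-control libraries without cytokine (0.48 ± 0.14, padj = 0.0138) and with IFN (0.63 ± 0.14, padj = 0.00172), while the groups overlapped with TNF (−0.05 ± 0.14, padj = 0.844) and with TNF + IFN (0.12 ± 0.14, padj = 0.595). In si-control it rose with TNF (1.12 ± 0.14, padj = 4.99e-07) and TNF + IFN (0.81 ± 0.14, padj = 2.01e-05) and fell with IFN (−0.55 ± 0.14, padj = 0.00621). In si-dnmt it rose with TNF (0.59 ± 0.14, padj = 0.0026) and TNF + IFN (0.46 ± 0.14, padj = 0.00885). For Tgfb2, leaving out 1 library ended the call of si-dnmt against si-control without cytokine (without replicate 3 of si-control or replicate 3 of si-dnmt, padj up to 0.0728). A call of Tgfb2 was gained on leaving out 1 library for IFN in si-dnmt (without replicate 1 of si-dnmt or replicate 3 of si-dnmt + IFN, padj down to 0.0298). Tgfb2 gained a call with the replicate block for IFN in si-dnmt (−0.41, padj = 0.0215).

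Without cytokine, Tgfb3 stood at 5.77, 6.31, 13.4 and 16.1 CPM in replicates 1 to 4 of si-control and at 4.99, 4.53, 8.26 and 6.57 CPM in si-dnmt. Tgfb3 with TNF stood at 3.65, 3.94, 6.18 and 6.17 CPM in si-control and 2.65, 3.71, 3.83 and 5.14 CPM in si-dnmt, and with IFN at 9.19, 9.21, 13.96 and 13.7 CPM and 7.50, 5.97, 7.04 and 7.59 CPM. With both cytokines, Tgfb3 stood at 4.85, 4.11, 6.29 and 6.51 CPM in si-control and 3.69, 4.02, 5.50 and 4.25 CPM in si-dnmt. Values of Tgfb3 were lowest in the groups with TNF. The gene was lower in si-dnmt without cytokine (−0.77 ± 0.27, padj = 0.0485), where the groups overlapped and the difference was −0.33 in replicates 1 and 2 alone and −0.99 in replicates 3 and 4 alone. In si-control it fell with TNF (−1.06 ± 0.28, padj = 0.00423) and with TNF + IFN (−0.94 ± 0.28, padj = 0.00689). For Tgfb3, leaving out 1 library ended the call of si-dnmt against si-control without cytokine (without replicate 3 or 4 of si-control or replicate 1, 2 or 4 of si-dnmt, padj up to 0.259) and TNF + IFN in si-control (without replicate 4 of si-control, padj up to 0.0581). Tgfb3 gained a call with the replicate block for si-dnmt against si-control with IFN (−0.69, padj = 0.00175), TNF in si-dnmt (−0.66, padj = 0.00425) and TNF + IFN in si-dnmt (−0.47, padj = 0.0282). Without cytokine, Tgfb1 stood at 84.5, 111, 77.3 and 73.3 CPM in replicates 1 to 4 of si-control and at 96.2, 91.2, 74.4 and 71.4 CPM in si-dnmt. Tgfb1 with TNF stood at 66.4, 74.97, 87.3 and 94.1 CPM in si-control and 88.2, 99.9, 85.3 and 91.05 CPM in si-dnmt, and with IFN at 75.5, 97.8, 61.04 and 73.7 CPM and 101, 86.6, 77.3 and 84.7 CPM. With both cytokines, Tgfb1 stood at 92.2, 88.03, 86.5 and 83.7 CPM in si-control and 83.5, 96.9, 81.4 and 77.4 CPM in si-dnmt. Tgfb1 values overlapped between the groups in each of the 10 comparisons, and its log2 fold changes lay between −0.17 and 0.18. Its change with TNF in si-control had opposite signs in the sets (−0.45, padj = 0.00753 in replicates 1 and 2 alone and 0.27, padj = 0.0184 in replicates 3 and 4 alone).

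The BMP ligand genes moved in different directions with TNF + IFN: Bmp2 rose and Bmp4 and Bmp6 fell. Bmp2, a ligand gene known to respond to inflammatory signals in endothelium, had few counts without cytokine. Without cytokine, Bmp2 stood at 0.0469, 0, 0 and 0.0897 CPM in replicates 1 to 4 of si-control and at 0.0445, 0.0428, 0.375 and 0.243 CPM in si-dnmt. Bmp2 with TNF stood at 1.42, 1.17, 0.476 and 0.279 CPM in si-control and 0.87, 0.751, 0.553 and 0.514 CPM in si-dnmt, and with IFN at 0.336, 0.52, 0 and 0.054 CPM and 1.11, 0.883, 0.552 and 0.606 CPM. With both cytokines, Bmp2 stood at 13.98, 14.3, 1.48 and 1.27 CPM in si-control and 14.4, 14.6, 7.69 and 7.80 CPM in si-dnmt. Each library with TNF + IFN lay above each without cytokine under both siRNAs. Only 3 counts were recorded over the 4 unstimulated si-control libraries, so the gene passed the filter on low counts through the groups where it is high. Relative to these, scaled counts were 23.9 times higher with TNF (interval 7.86 to 118), 6.53 times higher with IFN (1.89 to 34.8) and 232 times higher with TNF + IFN (79.1 to 1130). No fitted fold is given for these. In si-dnmt, with 20 unstimulated counts and 769 with TNF + IFN, the fitted log2 fold change with TNF + IFN was 5.85 ± 0.78, padj = 5.42e-07. The limit from the filter holds for this fold and padj as well, so they are a description only. With TNF + IFN in si-control, replicates 1 and 2 held 13.98 and 14.3 CPM and replicates 3 and 4 held 1.48 and 1.27 CPM. Bmp2 gained a call with the replicate block for si-dnmt against si-control with IFN (padj = 0.0431) and IFN in si-dnmt (padj = 0.0472). These calls compare 74 counts in si-dnmt + IFN with 17 in si-control + IFN and 20 in unstimulated si-dnmt. They carry the same limit from the filter and are a description only.

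Without cytokine, Bmp4 stood at 152, 173, 150.5 and 137 CPM in replicates 1 to 4 of si-control and at 160.3, 184, 136 and 139 CPM in si-dnmt. Bmp4 with TNF stood at 69.2, 82, 53.9 and 53.3 CPM in si-control and 54.6, 55.4, 44.05 and 44.2 CPM in si-dnmt, and with IFN at 172, 197, 153 and 159.6 CPM and 106, 116, 124 and 122 CPM. With both cytokines, Bmp4 stood at 47.3, 46.4, 44.2 and 46.6 CPM in si-control and 24.1, 30.5, 36.6 and 37.6 CPM in si-dnmt. Bmp4 was at least 137 CPM in all 4 unstimulated libraries of si-control and at most 82 CPM in the libraries with TNF. It fell in si-control with TNF (−1.25 ± 0.14, padj = 6.25e-08) and TNF + IFN (−1.73 ± 0.14, padj = 3.48e-11), and in si-dnmt with TNF (−1.64 ± 0.14, padj = 9.09e-10) and TNF + IFN (−2.26 ± 0.14, padj = 2.69e-13). The siRNA difference without cytokine was 0.01 ± 0.13, padj = 0.964, and Bmp4 was lower in si-dnmt with TNF (−0.38 ± 0.14, padj = 0.0458), IFN (−0.54 ± 0.13, padj = 0.00463) and TNF + IFN (−0.52 ± 0.14, padj = 0.00822). For Bmp4, leaving out 1 library ended the call of si-dnmt against si-control with TNF (without replicate 1 or 2 of si-control + TNF or replicate 3 or 4 of si-dnmt + TNF, padj up to 0.23). A call of Bmp4 was gained on leaving out 1 library for IFN in si-dnmt (without replicate 3 of si-dnmt, padj down to 0.0493). Bmp4 gained a call with the replicate block for IFN in si-dnmt (−0.39, padj = 0.0161).

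Without cytokine, Bmp6 stood at 59.4, 52.4, 138 and 128 CPM in replicates 1 to 4 of si-control and at 68.4, 73.1, 116 and 114 CPM in si-dnmt. Bmp6 with TNF stood at 30.9, 30.8, 63.1 and 72.8 CPM in si-control and 40.6, 47.1, 78.1 and 85.2 CPM in si-dnmt, and with IFN at 27.4, 28.7, 53.9 and 56.5 CPM and 38.6, 31.5, 60.8 and 62.7 CPM. With both cytokines, Bmp6 stood at 11.7, 13.7, 28.8 and 25.7 CPM in si-control and 18.3, 18.5, 41.9 and 42.1 CPM in si-dnmt. Replicates 3 and 4 had higher Bmp6 levels than replicates 1 and 2 in all 8 groups. Bmp6, a ligand gene that endothelial cells also use in iron regulation, fell in si-control with IFN (−1.18 ± 0.39, padj = 0.041) and TNF + IFN (−2.25 ± 0.41, padj = 4.92e-05), and in si-dnmt with TNF + IFN (−1.62 ± 0.40, padj = 0.00164). For Bmp6, leaving out 1 library ended the call of IFN in si-control (without replicate 3 or 4 of si-control or replicate 1 or 2 of si-control + IFN, padj up to 0.14). A call of Bmp6 was gained on leaving out 1 library for TNF in si-control (without replicate 1 or 2 of si-control or replicate 4 of si-control + TNF, padj down to 0.0367). Bmp6 gained a call with the replicate block for si-dnmt against si-control with TNF (0.38, padj = 0.00304), si-dnmt against si-control with TNF + IFN (0.58, padj = 7.86e-05), TNF in si-control (−0.92, padj = 1.12e-08), TNF in si-dnmt (−0.60, padj = 1.67e-05) and IFN in si-dnmt (−0.96, padj = 7.53e-09).

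Of the activin subunit genes, Inhbb fell with TNF + IFN and Inhba passed no test in the fit without the block. Without cytokine, Inhbb stood at 58.6, 56.2, 6.29 and 5.11 CPM in replicates 1 to 4 of si-control and at 33.9, 33.9, 4.64 and 6.71 CPM in si-dnmt. Inhbb with TNF stood at 11.7, 13.3, 0.606 and 0.882 CPM in si-control and 2.65, 3.52, 0.646 and 0.566 CPM in si-dnmt, and with IFN at 27.1, 36.8, 2.35 and 5.24 CPM and 18.8, 20.6, 2.94 and 4.18 CPM. With both cytokines, Inhbb stood at 5.72, 3.85, 0.801 and 1.11 CPM in si-control and 1.48, 1.14, 0.81 and 0.395 CPM in si-dnmt. The 2 sets of replicates lay far apart, since unstimulated si-control held 58.6 and 56.2 CPM in replicates 1 and 2 and 6.29 and 5.11 CPM in replicates 3 and 4. Inhbb fell with TNF + IFN in si-control (−3.43 ± 1.04, padj = 0.00828) and with TNF (−3.40 ± 1.06, padj = 0.022) and TNF + IFN (−4.39 ± 1.17, padj = 0.00332) in si-dnmt. The fall with TNF + IFN in si-control was −3.56 in replicates 1 and 2 alone and −2.55 in replicates 3 and 4 alone. For Inhbb, leaving out 1 library ended the call of TNF in si-dnmt (without replicate 1 or 2 of si-dnmt or replicate 3 or 4 of si-dnmt + TNF, padj up to 0.0674). A call of Inhbb was gained on leaving out 1 library for TNF in si-control (without replicate 4 of si-control, padj down to 0.0476). Inhbb gained a call with the replicate block for si-dnmt against si-control with TNF (−1.62, padj = 0.000246), si-dnmt against si-control with TNF + IFN (−1.51, padj = 0.0049), TNF in si-control (−2.30, padj = 2.92e-08), IFN in si-control (−0.76, padj = 0.0185) and IFN in si-dnmt (−0.74, padj = 0.0323). Inhba gained a call with the replicate block for si-dnmt against si-control with TNF (−0.57, padj = 0.0464), TNF in si-control (1.50, padj = 5e-06), TNF + IFN in si-control (0.95, padj = 0.000774) and TNF in si-dnmt (0.64, padj = 0.0268).

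Without cytokine, Gdf15 stood at 49.1, 38.1, 71.2 and 57.99 CPM in replicates 1 to 4 of si-control and at 68.4, 81.6, 101 and 112 CPM in si-dnmt. Gdf15 with TNF stood at 38.1, 40.3, 104 and 158 CPM in si-control and 64.99, 75.05, 135 and 132 CPM in si-dnmt, and with IFN at 44.5, 58.8, 74.9 and 137 CPM and 95.8, 89.8, 112 and 127 CPM. With both cytokines, Gdf15 stood at 62.9, 66.3, 122 and 86.2 CPM in si-control and 62.2, 80.7, 88.4 and 109.9 CPM in si-dnmt. Gdf15 encodes a stress-induced ligand of the family. It was called in none of the comparisons without the block, and its groups overlapped in each of the 10. Gdf15 gained a call with the replicate block for si-dnmt against si-control without cytokine (0.74, padj = 0.0067), si-dnmt against si-control with IFN (0.53, padj = 0.0486) and TNF + IFN in si-control (0.63, padj = 0.0123).

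The 4 genes of the latent TGF-beta binding protein family split into 2 that rose and 2 that fell with TNF + IFN in si-control. Without cytokine, Ltbp1 stood at 8.49, 8.01, 19.9 and 19.6 CPM in replicates 1 to 4 of si-control and at 8.95, 9.41, 17.3 and 15.99 CPM in si-dnmt. Ltbp1 with TNF stood at 7.74, 8.86, 26.5 and 25.3 CPM in si-control and 23.9, 30.6, 31.6 and 33.5 CPM in si-dnmt, and with IFN at 18.7, 15.2, 32.1 and 30.2 CPM and 44.9, 36.4, 33.7 and 35.97 CPM. With both cytokines, Ltbp1 stood at 49.4, 60.4, 76.05 and 74.2 CPM in si-control and 116, 108, 95.3 and 95.1 CPM in si-dnmt. All libraries with TNF + IFN lay above all those without cytokine. Ltbp1 rose with TNF + IFN in si-control (2.21 ± 0.35, padj = 6.05e-06), and in si-dnmt with TNF (1.21 ± 0.34, padj = 0.011), IFN (1.54 ± 0.34, padj = 0.00235) and TNF + IFN (3.00 ± 0.35, padj = 7.42e-08). A call of Ltbp1 was gained on leaving out 1 library for si-dnmt against si-control with TNF (without replicate 3 or 4 of si-control + TNF, padj down to 0.0343). Ltbp1 gained a call with the replicate block for si-dnmt against si-control with TNF (0.91, padj = 0.00618), si-dnmt against si-control with IFN (0.74, padj = 0.0219), si-dnmt against si-control with TNF + IFN (0.74, padj = 0.0194) and IFN in si-control (0.80, padj = 0.0211).

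Without cytokine, Ltbp2 stood at 70.4, 70.8, 43.4 and 42.5 CPM in replicates 1 to 4 of si-control and at 77.8, 79.6, 37.4 and 35.3 CPM in si-dnmt. Ltbp2 with TNF stood at 244, 284, 195 and 197 CPM in si-control and 249, 218, 107 and 106 CPM in si-dnmt, and with IFN at 51.05, 58.7, 26.7 and 35.97 CPM and 59.5, 60.8, 39.6 and 40.3 CPM. With both cytokines, Ltbp2 stood at 291, 227, 155 and 156 CPM in si-control and 175, 191, 106 and 106 CPM in si-dnmt. No library with TNF overlapped one without cytokine for Ltbp2. It rose in si-control with TNF (2.02 ± 0.33, padj = 2.8e-05) and TNF + IFN (1.87 ± 0.33, padj = 3.01e-05) and in si-dnmt with TNF (1.56 ± 0.32, padj = 0.000843) and TNF + IFN (1.33 ± 0.32, padj = 0.00144). Ltbp2 gained a call with the replicate block for si-dnmt against si-control with TNF (−0.53, padj = 0.000598), si-dnmt against si-control with TNF + IFN (−0.52, padj = 0.000724) and IFN in si-control (−0.41, padj = 0.00924).

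Without cytokine, Ltbp3 stood at 119, 123, 138 and 131 CPM in replicates 1 to 4 of si-control and at 106, 104, 90.9 and 98.8 CPM in si-dnmt. Ltbp3 with TNF stood at 47.8, 54.95, 59.7 and 64.7 CPM in si-control and 58.4, 56.9, 57.1 and 62.6 CPM in si-dnmt, and with IFN at 89.9, 110.5, 94.8 and 124 CPM and 88.7, 81.8, 87.5 and 93.7 CPM. With both cytokines, Ltbp3 stood at 52.7, 44.2, 47.5 and 50.1 CPM in si-control and 37.2, 53.4, 50.4 and 50.5 CPM in si-dnmt. Ltbp3 was at most 64.7 CPM with TNF or TNF + IFN and at least 90.9 CPM without cytokine. In si-control it fell with TNF (−1.17 ± 0.11, padj = 2.25e-09) and TNF + IFN (−1.39 ± 0.11, padj = 1.49e-11), as in si-dnmt with TNF (−0.77 ± 0.11, padj = 4.53e-06) and TNF + IFN (−1.06 ± 0.11, padj = 3.44e-09), and it was lower in si-dnmt without cytokine (−0.35 ± 0.10, padj = 0.0169). For Ltbp3, leaving out 1 library ended the call of si-dnmt against si-control without cytokine (without replicate 3 of si-control or replicate 3 of si-dnmt, padj up to 0.0704). A call of Ltbp3 was gained on leaving out 1 library for si-dnmt against si-control with IFN (without replicate 1 of si-control + IFN, padj down to 0.0412) and IFN in si-control (without replicate 4 of si-control + IFN, padj down to 0.0178). Ltbp3 gained a call with the replicate block for si-dnmt against si-control with IFN (−0.25, padj = 0.0383) and IFN in si-control (−0.29, padj = 0.0202).

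Without cytokine, Ltbp4 stood at 5.35, 5.30, 18.5 and 13.9 CPM in replicates 1 to 4 of si-control and at 2.80, 3.25, 8.97 and 9.42 CPM in si-dnmt. Ltbp4 with TNF stood at 4.21, 4.03, 8.44 and 9.24 CPM in si-control and 2.29, 2.02, 4.34 and 5.60 CPM in si-dnmt, and with IFN at 2.47, 4.21, 10.2 and 11.6 CPM and 1.89, 2.40, 5.75 and 5.45 CPM. With both cytokines, Ltbp4 stood at 1.59, 1.72, 5.24 and 4.45 CPM in si-control and 1.42, 1.38, 3.53 and 4.30 CPM in si-dnmt. Replicates 3 and 4 were above replicates 1 and 2 in each group. Ltbp4 fell with TNF + IFN in si-control (−1.74 ± 0.57, padj = 0.0131). For Ltbp4, leaving out 1 library ended the call of TNF + IFN in si-control (without replicate 3 of si-control, padj up to 0.0658). Ltbp4 gained a call with the replicate block for si-dnmt against si-control without cytokine (−0.81, padj = 4.91e-05), si-dnmt against si-control with TNF (−0.89, padj = 4.24e-05), si-dnmt against si-control with IFN (−0.83, padj = 9.49e-05), TNF in si-control (−0.64, padj = 0.000485), IFN in si-control (−0.61, padj = 0.00158), TNF in si-dnmt (−0.72, padj = 0.000473), IFN in si-dnmt (−0.63, padj = 0.00281) and TNF + IFN in si-dnmt (−1.18, padj = 4.1e-07). Bmp1 encodes a protease that cleaves matrix proteins and BMP inhibitors, and it was called in none of the 10 comparisons. Bmp1 gained a call with the replicate block for TNF in si-control (−0.62, padj = 0.000295), TNF + IFN in si-control (−0.45, padj = 0.00462) and TNF in si-dnmt (−0.49, padj = 0.00436).

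**Figure D4:**
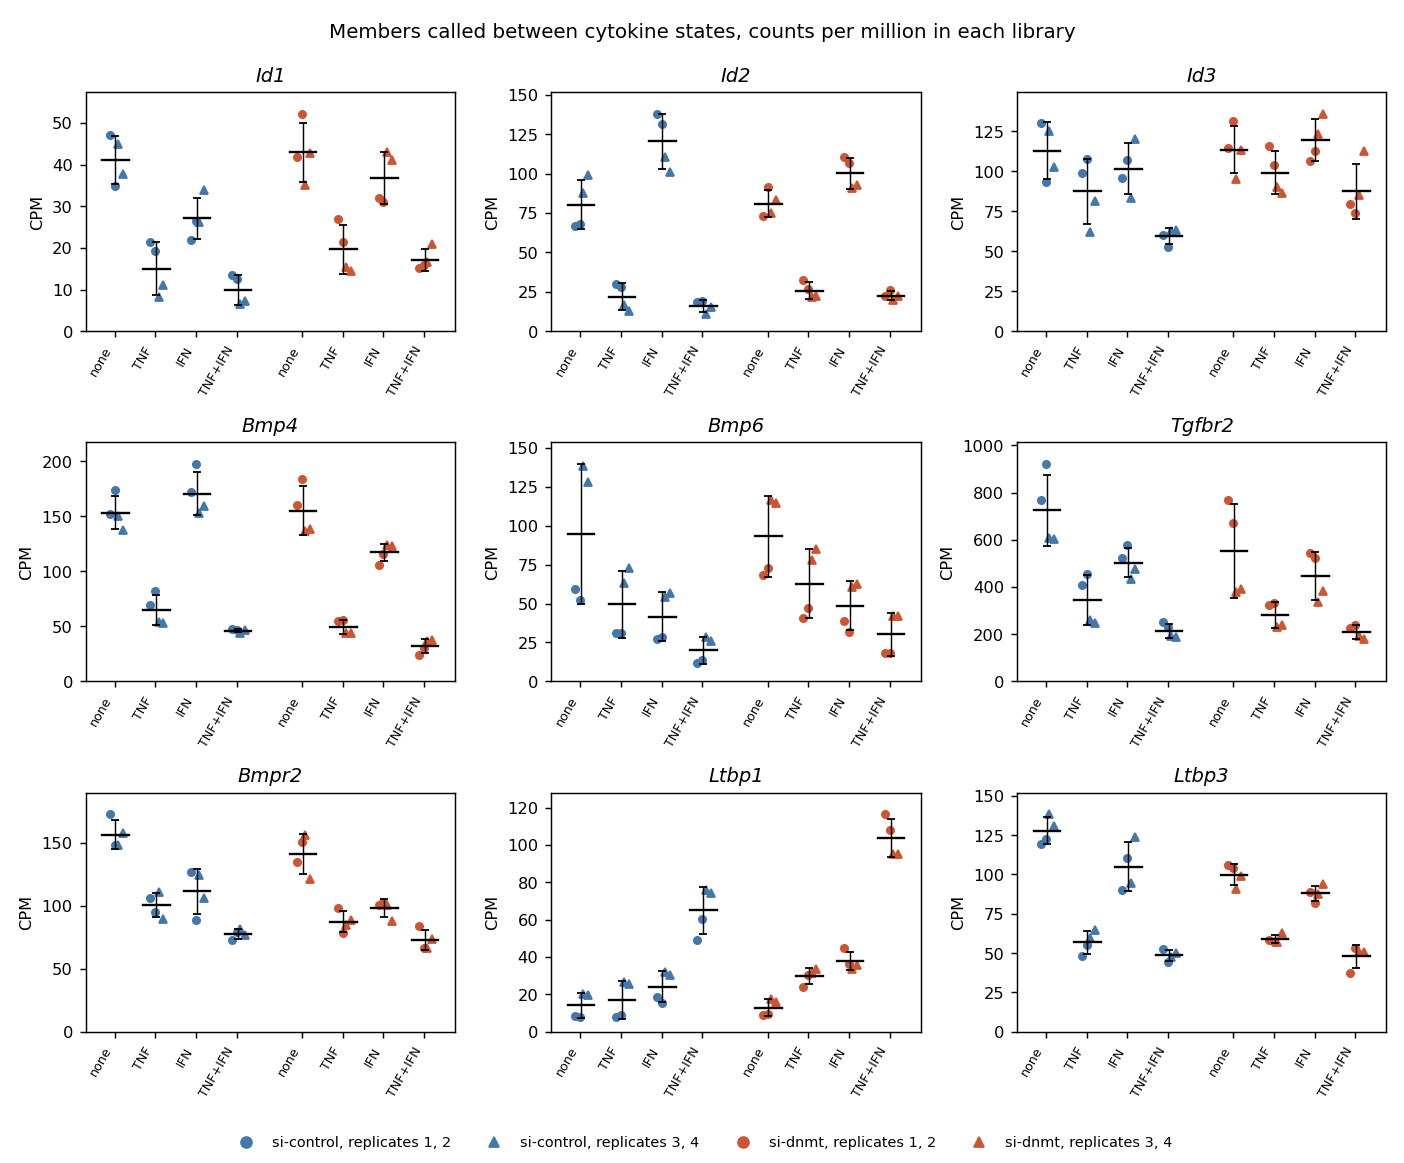
CPM of Id1, Id2, Id3, Bmp4, Bmp6, Tgfbr2, Bmpr2, Ltbp1 and Ltbp3 in each library, with circles for replicates 1 and 2, triangles for replicates 3 and 4 and bars for mean ± SD (n = 4). Bmp4, Id1 and Id2 are low in the groups with TNF, and Ltbp1 is highest with TNF + IFN.

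Among the receptor genes, Tgfbr2, Bmpr2 and Acvr2b, which encode type II receptors for TGF-beta, BMPs and activins, fell with cytokines. Without cytokine, Tgfbr2 stood at 768, 921, 609 and 602 CPM in replicates 1 to 4 of si-control and at 767, 673, 378 and 391 CPM in si-dnmt. Tgfbr2 with TNF stood at 410.0, 457, 261 and 248 CPM in si-control and 326, 334, 229 and 241 CPM in si-dnmt, and with IFN at 522, 578, 436 and 475 CPM and 544, 521, 337 and 382 CPM. With both cytokines, Tgfbr2 stood at 249.6, 229.7, 193 and 189 CPM in si-control and 225, 241, 190.3 and 180.4 CPM in si-dnmt. Libraries with TNF or TNF + IFN did not overlap those without cytokine under either siRNA. Tgfbr2 fell in si-control with TNF (−1.08 ± 0.22, padj = 0.000491) and TNF + IFN (−1.75 ± 0.23, padj = 3.06e-07), and in si-dnmt with TNF (−0.97 ± 0.22, padj = 0.00225) and TNF + IFN (−1.40 ± 0.22, padj = 1.01e-05). Tgfbr2 gained a call with the replicate block for si-dnmt against si-control without cytokine (−0.43, padj = 0.00165), si-dnmt against si-control with TNF (−0.26, padj = 0.0484) and IFN in si-control (−0.51, padj = 0.000318).

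Without cytokine, Bmpr2 stood at 173, 149, 148 and 158 CPM in replicates 1 to 4 of si-control and at 135, 151, 157 and 122 CPM in si-dnmt. Bmpr2 with TNF stood at 106, 95.5, 111 and 89.8 CPM in si-control and 98.2, 78.1, 85.1 and 88.4 CPM in si-dnmt, and with IFN at 127, 88.7, 124 and 106 CPM and 101, 103, 101 and 87.6 CPM. With both cytokines, Bmpr2 stood at 72.8, 79.1, 81.7 and 76.7 CPM in si-control and 83.8, 66.8, 66.5 and 73.4 CPM in si-dnmt. Each of the 3 cytokine treatments gave values below all unstimulated ones of the same siRNA. In si-control the log2 fold change was −0.64 ± 0.11, padj = 3.03e-05 for TNF, −0.49 ± 0.11, padj = 0.00132 for IFN and −1.01 ± 0.11, padj = 6.3e-09 for TNF + IFN, and in si-dnmt −0.69 ± 0.11, padj = 2.08e-05, −0.52 ± 0.11, padj = 0.000872 and −0.96 ± 0.11, padj = 2.34e-08. The siRNAs differed by −0.20 to −0.10 in the 4 states, with no call.

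Without cytokine, Acvr2b stood at 3.42, 2.81, 2.59 and 2.65 CPM in replicates 1 to 4 of si-control and at 3.12, 2.95, 2.29 and 2.29 CPM in si-dnmt. Acvr2b with TNF stood at 1.33, 1.41, 1.34 and 0.418 CPM in si-control and 1.78, 1.83, 2.40 and 0.977 CPM in si-dnmt, and with IFN at 2.07, 2.55, 1.31 and 1.40 CPM and 3.22, 2.52, 2.99 and 2.57 CPM. With both cytokines, Acvr2b stood at 0.817, 0.885, 1.60 and 1.01 CPM in si-control and 1.29, 1.26, 1.22 and 0.938 CPM in si-dnmt. Replicate 4 of si-control + TNF was the lowest of the 32 libraries. Acvr2b fell in si-control with TNF (−1.34 ± 0.29, padj = 0.000657) and TNF + IFN (−1.42 ± 0.29, padj = 0.000218) and in si-dnmt with TNF + IFN (−1.18 ± 0.29, padj = 0.00166). Acvr2b gained a call with the replicate block for si-dnmt against si-control with TNF (0.64, padj = 0.0496), si-dnmt against si-control with IFN (0.64, padj = 0.0334), IFN in si-control (−0.65, padj = 0.0382) and TNF in si-dnmt (−0.62, padj = 0.0378).

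Acvr1 encodes ALK2, a BMP type I receptor, and was higher in si-dnmt without cytokine (0.50 ± 0.08, padj = 9.63e-05) and with IFN (0.36 ± 0.08, padj = 0.00255). It rose in si-control with IFN (0.29 ± 0.08, padj = 0.0186) and TNF + IFN (0.33 ± 0.08, padj = 0.00194) and fell in si-dnmt with TNF (−0.25 ± 0.08, padj = 0.0305). For Acvr1, leaving out 1 library ended the call of IFN in si-control (without replicate 1 or 2 of si-control or replicate 1 or 3 of si-control + IFN, padj up to 0.0923) and TNF in si-dnmt (without replicate 3 or 4 of si-dnmt or replicate 1, 2 or 4 of si-dnmt + TNF, padj up to 0.144). Acvrl1 encodes ALK1, the endothelial receptor of BMP9 and BMP10, and fell with TNF in si-control (−0.67 ± 0.15, padj = 0.000973) and si-dnmt (−0.42 ± 0.15, padj = 0.0405). For Acvrl1, leaving out 1 library ended the call of TNF in si-dnmt (without replicate 1, 2 or 4 of si-dnmt or replicate 3 or 4 of si-dnmt + TNF, padj up to 0.154). Its change with TNF + IFN in si-control, which was not called over all libraries, had opposite signs in the sets (0.27, padj = 0.018 in replicates 1 and 2 alone and −0.54, padj = 9.34e-06 in replicates 3 and 4 alone). Tgfbr1, the type I TGF-beta receptor gene, fell with TNF + IFN in si-dnmt (−0.54 ± 0.16, padj = 0.00671). A call of Tgfbr1 was gained on leaving out 1 library for TNF + IFN in si-control (without replicate 1 or 2 of si-control, padj down to 0.0186). Tgfbr1 gained a call with the replicate block for IFN in si-control (−0.35, padj = 0.0225), TNF + IFN in si-control (−0.35, padj = 0.00981) and IFN in si-dnmt (−0.37, padj = 0.019). Acvr2a, a type II activin and BMP receptor gene, fell with TNF + IFN in si-dnmt (−0.26 ± 0.10, padj = 0.0352). For Acvr2a, leaving out 1 library ended the call of TNF + IFN in si-dnmt (without replicate 1 or 3 of si-dnmt or replicate 2 or 3 of si-dnmt + TNF + IFN, padj up to 0.0939).

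Bambi encodes a decoy receptor that lacks a kinase domain and dampens TGF-beta and BMP signalling. Without cytokine, Bambi stood at 6.90, 4.93, 6.90 and 5.96 CPM in replicates 1 to 4 of si-control and at 3.74, 5.13, 4.85 and 4.69 CPM in si-dnmt. Bambi with TNF stood at 8.55, 9.33, 5.54 and 5.25 CPM in si-control and 5.13, 5.35, 3.92 and 3.75 CPM in si-dnmt, and with IFN at 8.52, 11.6, 6.98 and 6.86 CPM and 5.22, 5.09, 4.09 and 4.41 CPM. With both cytokines, Bambi stood at 9.95, 10.00, 5.67 and 4.92 CPM in si-control and 4.62, 2.94, 3.18 and 3.11 CPM in si-dnmt. All 4 si-dnmt values lay below all 4 si-control values with IFN and with TNF + IFN, and the groups overlapped without cytokine and with TNF. Bambi was lower in si-dnmt with TNF (−0.66 ± 0.23, padj = 0.0413), IFN (−0.85 ± 0.23, padj = 0.00807) and TNF + IFN (−1.14 ± 0.23, padj = 0.000897), and the value without cytokine was −0.42 ± 0.23, padj = 0.212. No cytokine comparison was called for it. For Bambi, leaving out 1 library ended the call of si-dnmt against si-control with TNF (without replicate 1 or 2 of si-control + TNF or replicate 3 or 4 of si-dnmt + TNF, padj up to 0.158).

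Smad5 and Smad1, which encode BMP receptor SMADs, were lower in si-dnmt without cytokine and with TNF. Without cytokine, Smad5 stood at 143, 147, 112 and 128 CPM in replicates 1 to 4 of si-control and at 85.5, 92.95, 52.2 and 50.1 CPM in si-dnmt. Smad5 with TNF stood at 125, 128, 114 and 108 CPM in si-control and 75.7, 70.5, 41.7 and 40.6 CPM in si-dnmt, and with IFN at 129, 118, 103 and 98.5 CPM and 75.9, 80.4, 44.1 and 44.6 CPM. With both cytokines, Smad5 stood at 85.8, 85.7, 95.96 and 92.6 CPM in si-control and 70.3, 66.5, 40.8 and 43.4 CPM in si-dnmt. No si-dnmt library reached the level of a si-control library of the same cytokine state. Smad5 was lower in si-dnmt, with log2 fold changes of −0.92 ± 0.23, padj = 0.00462 without cytokine, −1.06 ± 0.23, padj = 0.0013 with TNF, −0.87 ± 0.23, padj = 0.0065 with IFN and −0.71 ± 0.23, padj = 0.0298 with TNF + IFN. These differences were −0.69 in replicates 1 and 2 alone and −1.23 in replicates 3 and 4 alone for no cytokine and −0.33 in replicates 1 and 2 alone and −1.16 in replicates 3 and 4 alone for TNF + IFN. In si-control Smad5 also fell with TNF + IFN (−0.56 ± 0.23, padj = 0.0446). For Smad5, leaving out 1 library ended the call of si-dnmt against si-control with TNF + IFN (without replicate 3 or 4 of si-control + TNF + IFN or replicate 3 or 4 of si-dnmt + TNF + IFN, padj up to 0.111) and TNF + IFN in si-control (without replicate 1, 2 or 4 of si-control or replicate 1, 2, 3 or 4 of si-control + TNF + IFN, padj up to 0.099). Smad5 gained a call with the replicate block for TNF + IFN in si-dnmt (−0.34, padj = 0.0463).

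Smad1 was lower in si-dnmt without cytokine (−0.61 ± 0.20, padj = 0.0328) and with TNF (−0.55 ± 0.20, padj = 0.0495), and the values with IFN (−0.46 ± 0.20, padj = 0.103) and TNF + IFN (−0.49 ± 0.20, padj = 0.0941) missed the threshold. Its mean was 123 ± 35.5 CPM (SD, n = 4) in unstimulated si-control and 80.95 ± 24.1 CPM in si-dnmt. For Smad1, leaving out 1 library ended the call of si-dnmt against si-control without cytokine (without replicate 1 or 2 of si-control or replicate 3 or 4 of si-dnmt, padj up to 0.165) and si-dnmt against si-control with TNF (without replicate 1, 2 or 3 of si-control + TNF or replicate 3 or 4 of si-dnmt + TNF, padj up to 0.164). Smad1 gained a call with the replicate block for si-dnmt against si-control with IFN (−0.49, padj = 0.000534) and si-dnmt against si-control with TNF + IFN (−0.51, padj = 0.000338).

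Without cytokine, Smad9 stood at 1.83, 1.32, 2.86 and 2.78 CPM in replicates 1 to 4 of si-control and at 4.67, 6.93, 10.3 and 7.89 CPM in si-dnmt. Smad9 with TNF stood at 0.86, 0.563, 0.735 and 1.25 CPM in si-control and 2.01, 2.21, 4.34 and 3.70 CPM in si-dnmt, and with IFN at 0.672, 0.468, 1.04 and 1.94 CPM and 3.00, 2.77, 6.53 and 4.53 CPM. With both cytokines, Smad9 stood at 0.288, 0.156, 0.555 and 0.423 CPM in si-control and 0.492, 0.78, 1.16 and 0.889 CPM in si-dnmt. Levels of Smad9 in si-dnmt were above all those in si-control of the same cytokine state, except with TNF + IFN, where the groups overlapped. The log2 fold change was 1.75 ± 0.36, padj = 0.001 without cytokine, 1.84 ± 0.39, padj = 0.00123 with TNF, 2.03 ± 0.39, padj = 0.000428 with IFN and 1.24 ± 0.49, padj = 0.0796 with TNF + IFN. It fell with cytokines, with log2 fold changes of −1.37 ± 0.40, padj = 0.00922 for TNF and −2.64 ± 0.45, padj = 2.18e-05 for TNF + IFN in si-control and of −1.28 ± 0.36, padj = 0.0104 and −3.15 ± 0.40, padj = 2.91e-07 in si-dnmt. Smad9 held 26 counts over the 4 libraries of si-control + TNF + IFN and passed the filter on low counts through the groups where it is high. Folds and padj of Smad9 with that group are a description only. A call of Smad9 was gained on leaving out 1 library for IFN in si-control (without replicate 2 of si-control or replicate 4 of si-control + IFN, padj down to 0.00934). Smad9 gained a call with the replicate block for si-dnmt against si-control with TNF + IFN (1.22, padj = 0.00695), IFN in si-control (−1.11, padj = 0.00082) and IFN in si-dnmt (−0.86, padj = 0.00106). On the CPM per kilobase scale, Smad1, Smad5 and Smad9 summed to 37.9 ± 7.44 (SD, n = 4) in unstimulated si-control and to 23.8 ± 6.38 in si-dnmt, and Smad9 made up 0.523% to 1.72% of the sum in these si-control libraries and 2.95% to 10.4% in these si-dnmt libraries. With TNF + IFN the shares were 0.103% to 0.341% and 0.391% to 1.36%. The sum is given as a description with no test.

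**Figure D5:**
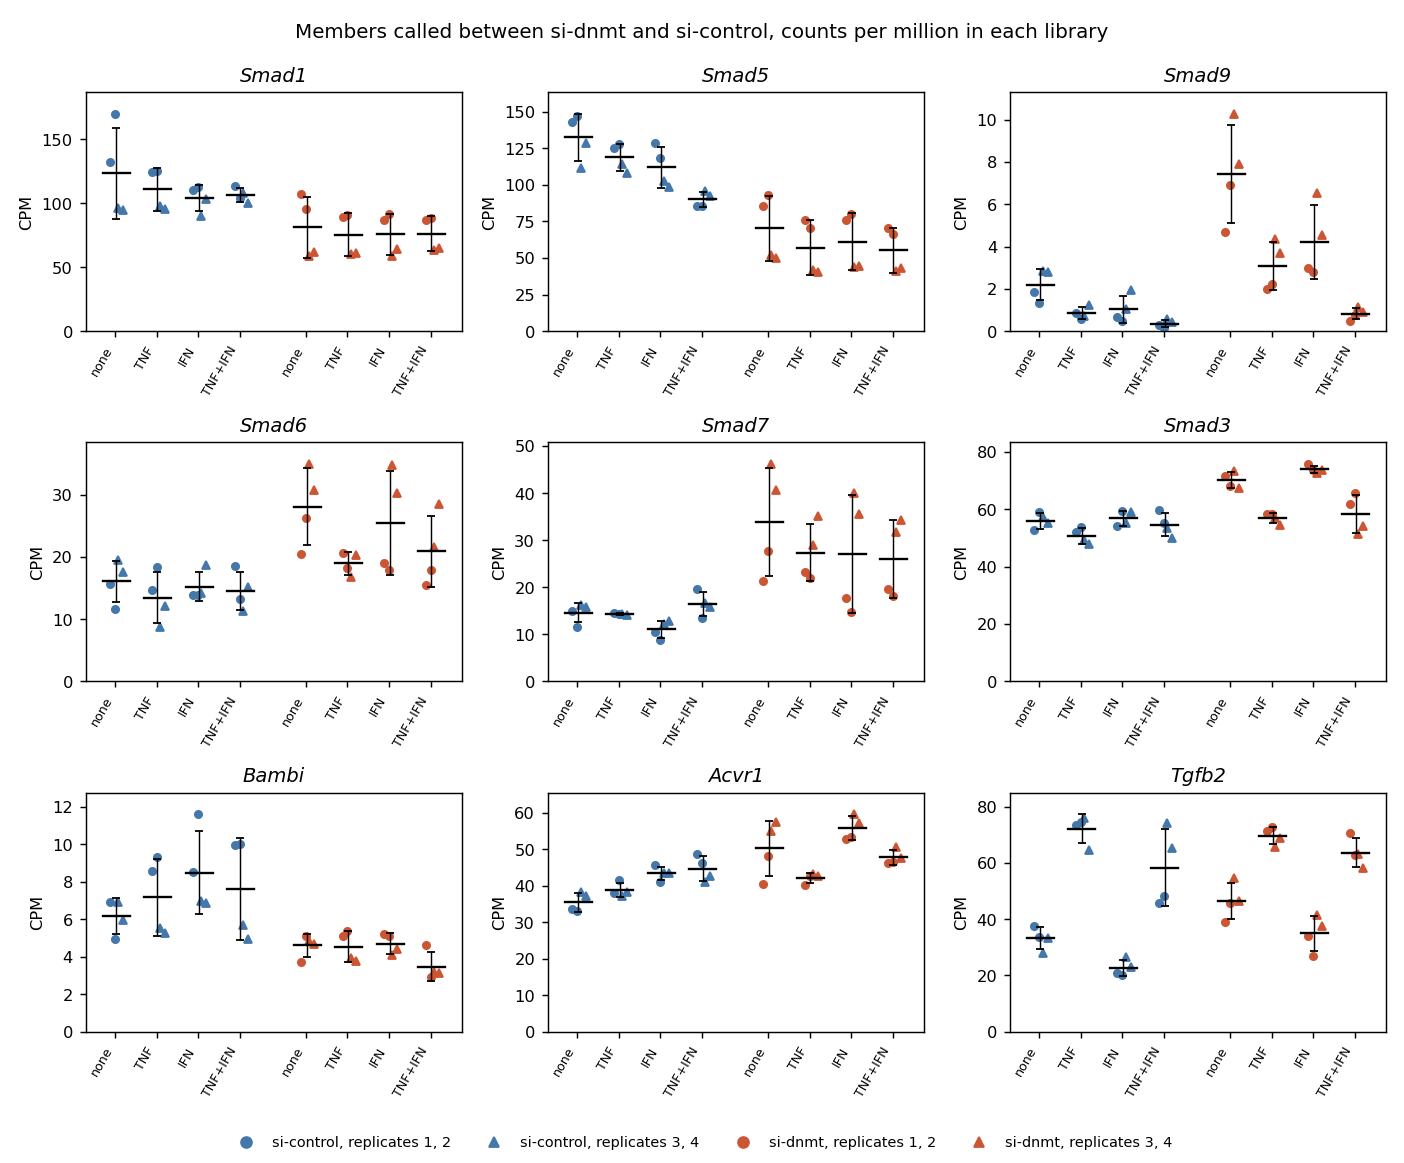
CPM of Smad1, Smad5, Smad9, Smad6, Smad7, Smad3, Bambi, Acvr1 and Tgfb2 in each library, with circles for replicates 1 and 2, triangles for replicates 3 and 4 and bars for mean ± SD (n = 4). Smad5 is lower and Smad9 mostly higher in si-dnmt than in si-control within each cytokine state.

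The inhibitory SMAD genes were higher in si-dnmt without cytokine and with IFN. Without cytokine, Smad7 stood at 14.9, 11.6, 16.1 and 15.8 CPM in replicates 1 to 4 of si-control and at 21.3, 27.6, 46.1 and 40.6 CPM in si-dnmt. Smad7 with TNF stood at 14.5, 14.2, 14.2 and 14.1 CPM in si-control and 23.3, 22.1, 29.01 and 35.1 CPM in si-dnmt, and with IFN at 10.5, 8.69, 12.2 and 12.8 CPM and 17.8, 14.8, 39.97 and 35.6 CPM. With both cytokines, Smad7 stood at 19.6, 13.5, 16.7 and 15.7 CPM in si-control and 19.6, 18.1, 31.6 and 34.4 CPM in si-dnmt. Smad7 in si-dnmt was above every si-control library without cytokine, with TNF and with IFN, and overlapped with TNF + IFN. The log2 fold change was 1.22 ± 0.26, padj = 0.00155 without cytokine, 0.94 ± 0.26, padj = 0.012 with TNF, 1.29 ± 0.27, padj = 0.000925 with IFN and 0.66 ± 0.26, padj = 0.0834 with TNF + IFN. These were 0.89 in replicates 1 and 2 alone and 1.44 in replicates 3 and 4 alone for no cytokine and 0.18 in replicates 1 and 2 alone and 1.03 in replicates 3 and 4 alone for TNF + IFN. No cytokine comparison was called. For Smad7, leaving out 1 library ended the call of si-dnmt against si-control with TNF (without replicate 4 of si-dnmt + TNF, padj up to 0.0551). A call of Smad7 was gained on leaving out 1 library for si-dnmt against si-control with TNF + IFN (without replicate 2 of si-dnmt + TNF + IFN, padj down to 0.0475). Smad7 gained a call with the replicate block for si-dnmt against si-control with TNF + IFN (0.60, padj = 0.0123).

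Without cytokine, Smad6 stood at 15.6, 11.7, 19.4 and 17.5 CPM in replicates 1 to 4 of si-control and at 20.4, 26.2, 34.9 and 30.8 CPM in si-dnmt. Smad6 with TNF stood at 14.6, 18.4, 8.69 and 12.2 CPM in si-control and 20.6, 18.2, 16.7 and 20.3 CPM in si-dnmt, and with IFN at 13.9, 13.9, 14.2 and 18.7 CPM and 19.01, 17.8, 34.8 and 30.2 CPM. With both cytokines, Smad6 stood at 18.4, 13.3, 11.3 and 15.2 CPM in si-control and 15.4, 17.9, 21.6 and 28.5 CPM in si-dnmt. The groups did not overlap without cytokine, and they overlapped in the other 3 states. Smad6 was higher in si-dnmt without cytokine (0.81 ± 0.23, padj = 0.0137) and with IFN (0.74 ± 0.23, padj = 0.0218), and the values with TNF (0.49 ± 0.23, padj = 0.141) and TNF + IFN (0.52 ± 0.23, padj = 0.127) missed the threshold. The difference with IFN was 0.39 in replicates 1 and 2 alone and 0.97 in replicates 3 and 4 alone. For Smad6, leaving out 1 library ended the call of si-dnmt against si-control without cytokine (without replicate 2 of si-control or replicate 3 of si-dnmt, padj up to 0.0638) and si-dnmt against si-control with IFN (without replicate 1, 2 or 3 of si-control + IFN or replicate 3 or 4 of si-dnmt + IFN, padj up to 0.117). A call of Smad6 was gained on leaving out 1 library for TNF in si-dnmt (without replicate 1 of si-dnmt, padj down to 0.049) and TNF + IFN in si-dnmt (without replicate 4 of si-dnmt + TNF + IFN, padj down to 0.0459). Smad6 gained a call with the replicate block for TNF in si-dnmt (−0.56, padj = 0.0397).

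Of the TGF-beta arm, Smad3 was higher in si-dnmt without cytokine (0.32 ± 0.07, padj = 0.00157) and with IFN (0.38 ± 0.07, padj = 0.000287) and fell in si-dnmt with TNF (−0.30 ± 0.07, padj = 0.00291) and TNF + IFN (−0.27 ± 0.07, padj = 0.00301). Smad3 gained a call with the replicate block for si-dnmt against si-control with TNF (0.17, padj = 0.0472). Smad2 was called lower with TNF + IFN in si-control (−0.16 ± 0.07, padj = 0.0484), and its unstimulated si-control replicate 2 held 81.1 CPM beside 67.6 to 69.5 CPM in the other 3. For Smad2, leaving out 1 library ended the call of TNF + IFN in si-control (without replicate 1 or 2 of si-control or replicate 1 or 2 of si-control + TNF + IFN, padj up to 0.235). A call of Smad2 was gained on leaving out 1 library for TNF + IFN in si-dnmt (without replicate 1 of si-dnmt + TNF + IFN, padj down to 0.0448). Smad2 gained a call with the replicate block for si-dnmt against si-control with TNF (−0.16, padj = 0.0496). Smad4 was called in none of the 10 comparisons. A call of Smad4 was gained on leaving out 1 library for si-dnmt against si-control with TNF + IFN (without replicate 1 of si-dnmt + TNF + IFN, padj down to 0.0479). Smad4 gained a call with the replicate block for si-dnmt against si-control with TNF (−0.17, padj = 0.0444) and si-dnmt against si-control with TNF + IFN (−0.17, padj = 0.0456).

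Smurf1 and Smurf2 encode ubiquitin ligases that target SMADs and receptors for degradation. Without cytokine, Smurf1 stood at 138, 138, 160.1 and 154 CPM in replicates 1 to 4 of si-control and at 167, 156, 175 and 168 CPM in si-dnmt. Smurf1 with TNF stood at 199, 219.9, 338 and 352 CPM in si-control and 198, 203, 247 and 263 CPM in si-dnmt, and with IFN at 162, 168, 182 and 221 CPM and 200.5, 191, 229 and 225 CPM. With both cytokines, Smurf1 stood at 371, 332, 461 and 431 CPM in si-control and 307, 324, 376 and 356 CPM in si-dnmt. Each library with TNF or TNF + IFN lay above each without cytokine under the same siRNA. Smurf1 rose in si-control with TNF (0.91 ± 0.15, padj = 2.26e-05) and TNF + IFN (1.43 ± 0.15, padj = 4.55e-09) and in si-dnmt with TNF (0.45 ± 0.14, padj = 0.0254) and TNF + IFN (1.03 ± 0.15, padj = 1.49e-06). For Smurf1, leaving out 1 library ended the call of TNF in si-dnmt (without replicate 1 or 2 of si-dnmt or replicate 3 or 4 of si-dnmt + TNF, padj up to 0.0901). A call of Smurf1 was gained on leaving out 1 library for si-dnmt against si-control with TNF (without replicate 1 of si-control + TNF, padj down to 0.0423). Smurf1 gained a call with the replicate block for si-dnmt against si-control with TNF (−0.26, padj = 0.0243), IFN in si-control (0.31, padj = 0.0116) and IFN in si-dnmt (0.34, padj = 0.00765). Smurf2 was called in no comparison without the block. Smurf2 gained a call with the replicate block for si-dnmt against si-control without cytokine (0.25, padj = 0.0475) and TNF in si-control (0.31, padj = 0.01).

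The ID genes encode inhibitors of basic helix-loop-helix factors and are direct targets of BMP SMADs. Without cytokine, Id1 stood at 47.1, 34.9, 45 and 37.8 CPM in replicates 1 to 4 of si-control and at 41.8, 52.2, 35.1 and 42.8 CPM in si-dnmt. Id1 with TNF stood at 21.4, 19.3, 8.18 and 11.1 CPM in si-control and 27.1, 21.5, 15.4 and 14.6 CPM in si-dnmt, and with IFN at 21.9, 26.5, 26.2 and 33.8 CPM and 32.01, 30.9, 43.1 and 41.2 CPM. With both cytokines, Id1 stood at 13.4, 12.6, 6.53 and 7.14 CPM in si-control and 15.1, 15.8, 16.5 and 20.99 CPM in si-dnmt. Every library with TNF or TNF + IFN lay below every unstimulated library of the same siRNA. Id1 fell in si-control with TNF (−1.46 ± 0.25, padj = 6.53e-05) and TNF + IFN (−2.05 ± 0.26, padj = 2.36e-07), and in si-dnmt with TNF (−1.13 ± 0.25, padj = 0.00168) and TNF + IFN (−1.33 ± 0.25, padj = 0.000105). The siRNAs differed with TNF + IFN, where Id1 was higher in si-dnmt (0.78 ± 0.26, padj = 0.0351), and this was 0.24 in replicates 1 and 2 alone and 1.45 in replicates 3 and 4 alone. Without cytokine the siRNA difference was 0.06 ± 0.25, padj = 0.906. For Id1, leaving out 1 library ended the call of si-dnmt against si-control with TNF + IFN (without replicate 3 or 4 of si-control + TNF + IFN or replicate 3 or 4 of si-dnmt + TNF + IFN, padj up to 0.126).

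Without cytokine, Id2 stood at 66.8, 68.2, 87.5 and 98.8 CPM in replicates 1 to 4 of si-control and at 73.2, 91.7, 74.8 and 83.4 CPM in si-dnmt. Id2 with TNF stood at 30.1, 27.8, 16.9 and 12.5 CPM in si-control and 32.7, 26.8, 21.4 and 22.3 CPM in si-dnmt, and with IFN at 138, 132, 111 and 101 CPM and 110.3, 107, 90.6 and 92.5 CPM. With both cytokines, Id2 stood at 18.6, 19.1, 10.97 and 15.1 CPM in si-control and 22.1, 26.2, 19.7 and 22.1 CPM in si-dnmt. With IFN alone all 4 si-control values were above the unstimulated ones, and with TNF or TNF + IFN all were below. Id2 fell in si-control with TNF (−1.88 ± 0.21, padj = 8.01e-08) and TNF + IFN (−2.33 ± 0.21, padj = 4.97e-10) and in si-dnmt with TNF (−1.65 ± 0.21, padj = 1.15e-06) and TNF + IFN (−1.84 ± 0.21, padj = 3.73e-08), and rose with IFN in si-control (0.58 ± 0.20, padj = 0.05, just under the threshold before rounding). For Id2, leaving out 1 library ended the call of IFN in si-control (without replicate 1, 2 or 3 of si-control or replicate 1, 2 or 3 of si-control + IFN, padj up to 0.158). Id2 gained a call with the replicate block for si-dnmt against si-control with TNF + IFN (0.51, padj = 0.0328).

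Without cytokine, Id3 stood at 130.2, 93.5, 125 and 103 CPM in replicates 1 to 4 of si-control and at 115, 131, 95.2 and 113 CPM in si-dnmt. Id3 with TNF stood at 99.1, 108, 61.9 and 81.4 CPM in si-control and 116, 104, 90.2 and 86.5 CPM in si-dnmt, and with IFN at 95.5, 107, 83.02 and 120.4 CPM and 106, 113, 123 and 136 CPM. With both cytokines, Id3 stood at 60.01, 52.6, 62.6 and 62.98 CPM in si-control and 79.4, 73.7, 84.97 and 112 CPM in si-dnmt. Id3 overlapped between TNF and no cytokine and was below all unstimulated values with TNF + IFN in si-control (−0.92 ± 0.16, padj = 1.81e-05). It was higher in si-dnmt with TNF + IFN (0.56 ± 0.16, padj = 0.0122). For Id3, leaving out 1 library ended the call of si-dnmt against si-control with TNF + IFN (without replicate 4 of si-dnmt + TNF + IFN, padj up to 0.0817). A call of Id3 was gained on leaving out 1 library for TNF in si-control (without replicate 2 of si-control or replicate 2 of si-control + TNF, padj down to 0.0264) and TNF + IFN in si-dnmt (without replicate 3 of si-dnmt or replicate 4 of si-dnmt + TNF + IFN, padj down to 0.0108). Id3 gained a call with the replicate block for TNF in si-control (−0.38, padj = 0.0373) and TNF + IFN in si-dnmt (−0.37, padj = 0.0341).

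Of the 40 members, 32 were called in at least 1 of the 10 comparisons, beside 69% of all genes tested. The 8 members called in none were Tgfb1, Tgfbr3, Bmp1, Bmpr1a, Smad4, Inhba, Smurf2 and Gdf15. Tgfbr3 encodes the co-receptor betaglycan and had log2 fold changes between −0.86 and 0.30. Its change with TNF in si-control had opposite signs in the sets (−0.50, padj = 0.0183 in replicates 1 and 2 alone and 1.08, padj = 9.5e-06 in replicates 3 and 4 alone), as had those with TNF + IFN in si-control (−1.08, padj = 1.45e-05 in replicates 1 and 2 alone and 0.45, padj = 0.028 in replicates 3 and 4 alone) and in si-dnmt (−0.53, padj = 0.0134 in replicates 1 and 2 alone and 0.84, padj = 0.000562 in replicates 3 and 4 alone). A call of Tgfbr3 was gained on leaving out 1 library for si-dnmt against si-control without cytokine (without replicate 1 of si-dnmt, padj down to 0.0496) and IFN in si-dnmt (without replicate 3 or 4 of si-dnmt, padj down to 0.0322). Bmpr1a encodes the BMP type I receptor ALK3. Bmpr1a gained a call with the replicate block for si-dnmt against si-control without cytokine (0.83, padj = 0.0202), si-dnmt against si-control with TNF (0.75, padj = 0.0284) and TNF + IFN in si-control (0.85, padj = 0.012).

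A wider list of 88 further genes of these pathways, of which 55 had enough counts to be tested, was read in the same fit. Of the 55, 14 were higher (25.5%) and 6 lower (10.9%) in si-dnmt without cytokine, beside 9.58% and 8.88% of all genes. With TNF 12 and 8 (21.8% and 14.5%) were called, beside 10.4% and 9.59%. With IFN the numbers were 13 and 8 (23.6% and 14.5%), beside 10.8% and 9.54%, and with TNF + IFN 9 and 10 (16.4% and 18.2%), beside 8.97% and 8.72%. In si-control 14 were higher and 12 lower with TNF (25.5% and 21.8%), beside 16.1% and 14.6% of all genes. The numbers were 3 and 4 with IFN (5.45% and 7.27%, beside 8.56% and 5.92%) and 19 and 15 with TNF + IFN (34.5% and 27.3%, beside 23.5% and 21.6%). In si-dnmt they were 11 and 10 with TNF (20% and 18.2%, beside 11.5% and 9.54%), 2 and 2 with IFN (3.64% each, beside 6.66% and 2.35%) and 14 and 18 with TNF + IFN (25.5% and 32.7%, beside 21.3% and 18.9%). The list was chosen with earlier results known, and these shares are a description. They count Bmpr1b, Bmp10 and Col1a1, which passed the filter on low counts through the groups where they are high. The same limit holds for Tgfbi in unstimulated si-dnmt and for Nbl1 in si-control + IFN. Among 14 extracellular regulators tested, 5 were higher in si-dnmt without cytokine (Fstl3, Nbl1, Fbn1, Thbs1 and Itgav) and 1 was lower (Nrros). Among 17 intracellular regulators 4 were higher and 4 lower, and among 13 TGF-beta target genes 3 were higher and 1 was lower.

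Tgfbi, which encodes a matrix protein, was lower in si-dnmt in all 4 states, with log2 fold changes of −1.96 ± 0.43, padj = 0.00171 without cytokine, −1.71 ± 0.38, padj = 0.0019 with TNF, −1.48 ± 0.40, padj = 0.00799 with IFN and −1.46 ± 0.37, padj = 0.00647 with TNF + IFN. Without cytokine it held 27 counts over 4 libraries in si-dnmt and 88 in si-control. Tgfbi passed the filter on low counts through the groups where it is high, so that fold and padj are a description only. For Tgfbi, leaving out 1 library ended the call of si-dnmt against si-control with TNF + IFN (without replicate 1 of si-control + TNF + IFN, padj up to 0.0508). The corepressor gene Tgif1 was also lower in all 4 states, by −1.11 ± 0.16, padj = 9.15e-06, −1.23 ± 0.16, padj = 2.01e-06, −1.05 ± 0.16, padj = 1.83e-05 and −1.25 ± 0.16, padj = 2.04e-06 in the same order. Nbl1, which encodes a secreted BMP antagonist, was higher in si-dnmt in all 4 states (2.04 ± 0.37, padj = 0.000273, 2.13 ± 0.33, padj = 2.63e-05, 3.04 ± 0.39, padj = 3.37e-06 and 2.11 ± 0.32, padj = 2.37e-05). With IFN, Nbl1 held 29 counts over 4 libraries in si-control and 311 in si-dnmt. It passed the filter through the groups where it is high, so the fold and padj with IFN are a description only. Acta2, the smooth muscle actin gene, which is also among the pericyte and smooth muscle markers above, was higher in si-dnmt without cytokine (2.83 ± 0.54, padj = 0.000434), with TNF (2.58 ± 0.54, padj = 0.000894) and with IFN (1.94 ± 0.52, padj = 0.0081). Acta2 gained a call with the replicate block for si-dnmt against si-control with TNF + IFN (1.38, padj = 1.54e-06).

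Pmepa1, which encodes an inhibitor of SMAD signalling, was lower in si-dnmt with TNF (−1.57 ± 0.29, padj = 0.000277), IFN (−1.15 ± 0.29, padj = 0.00474) and TNF + IFN (−0.92 ± 0.28, padj = 0.0229). For Pmepa1, leaving out 1 library ended the call of si-dnmt against si-control with TNF + IFN (without replicate 1 or 2 of si-control + TNF + IFN or replicate 3 or 4 of si-dnmt + TNF + IFN, padj up to 0.129). A call of Pmepa1 was gained on leaving out 1 library for si-dnmt against si-control without cytokine (without replicate 3 of si-control, padj down to 0.0379). Pmepa1 gained a call with the replicate block for si-dnmt against si-control without cytokine (−0.63, padj = 0.0255). Rgma, a BMP co-receptor gene, was lower with TNF (−1.27 ± 0.37, padj = 0.015), IFN (−1.06 ± 0.38, padj = 0.0444) and TNF + IFN (−1.90 ± 0.39, padj = 0.000821). For Rgma, leaving out 1 library ended the call of si-dnmt against si-control with TNF (without replicate 3 or 4 of si-control + TNF, padj up to 0.0595) and si-dnmt against si-control with IFN (without replicate 2, 3 or 4 of si-control + IFN or replicate 1, 2, 3 or 4 of si-dnmt + IFN, padj up to 0.141). A further 3 genes had few counts in si-control and passed the filter on low counts through the groups where they are high, so summed counts over 4 libraries stand in place of a fold. For the same reason the padj printed beside these counts are a description only. The type I receptor gene Bmpr1b held 11 counts in unstimulated si-control and 96 in si-dnmt (padj = 0.000104), 12 and 51 with IFN (padj = 0.0197) and 101 and 211 with TNF + IFN (padj = 0.0151). For Bmpr1b, leaving out 1 library ended the call of si-dnmt against si-control with IFN (without replicate 4 of si-control + IFN or replicate 4 of si-dnmt + IFN, padj up to 0.0644) and si-dnmt against si-control with TNF + IFN (without replicate 3 or 4 of si-control + TNF + IFN or replicate 1 or 2 of si-dnmt + TNF + IFN, padj up to 0.0732). Bmp10, the gene of an ALK1 ligand, held 8 and 56 counts with TNF (padj = 0.00962) and 28 and 160 with TNF + IFN (padj = 0.00309). A call of Bmp10 was gained on leaving out 1 library for si-dnmt against si-control with IFN (without replicate 3 of si-control + IFN, padj down to 0.0323). The collagen gene Col1a1 held 8 and 83 counts with TNF (padj = 0.049), with overlapping groups. For Col1a1, leaving out 1 library ended the call of si-dnmt against si-control with TNF (without replicate 1, 2, 3 or 4 of si-control + TNF or replicate 3 or 4 of si-dnmt + TNF, padj up to 0.186). Col1a1 gained a call with the replicate block for si-dnmt against si-control without cytokine (padj = 0.00144), si-dnmt against si-control with IFN (padj = 0.000683) and si-dnmt against si-control with TNF + IFN (padj = 5.54e-05).

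Eng, which encodes the endothelial co-receptor endoglin, was higher in si-dnmt with TNF (0.67 ± 0.17, padj = 0.00558) and fell with TNF in si-control (−1.12 ± 0.17, padj = 1.04e-05) and in si-dnmt (−0.57 ± 0.17, padj = 0.0153). For Eng, leaving out 1 library ended the call of TNF in si-dnmt (without replicate 1 or 2 of si-dnmt, padj up to 0.0635). A call of Eng was gained on leaving out 1 library for si-dnmt against si-control with IFN (without replicate 2 of si-control + IFN, padj down to 0.0324) and TNF + IFN in si-control (without replicate 3 or 4 of si-control or replicate 1 of si-control + TNF + IFN, padj down to 0.0213). Eng gained a call with the replicate block for si-dnmt against si-control with IFN (0.35, padj = 0.024), si-dnmt against si-control with TNF + IFN (0.38, padj = 0.0172) and TNF + IFN in si-control (−0.38, padj = 0.00769). Atoh8, a BMP target gene, fell in si-control with TNF (−1.45 ± 0.21, padj = 5.32e-06), IFN (−0.65 ± 0.20, padj = 0.0304) and TNF + IFN (−2.73 ± 0.23, padj = 8.66e-11), and in si-dnmt with TNF (−1.88 ± 0.21, padj = 1.87e-07) and TNF + IFN (−2.38 ± 0.22, padj = 7.72e-10). It was higher in si-dnmt with IFN (0.63 ± 0.20, padj = 0.0291) and TNF + IFN (0.67 ± 0.24, padj = 0.0484). For Atoh8, leaving out 1 library ended the call of si-dnmt against si-control with IFN (without replicate 1, 2 or 3 of si-control + IFN or replicate 1, 3 or 4 of si-dnmt + IFN, padj up to 0.0914), si-dnmt against si-control with TNF + IFN (without replicate 1 or 2 of si-control + TNF + IFN or replicate 2, 3 or 4 of si-dnmt + TNF + IFN, padj up to 0.27) and IFN in si-control (without replicate 3 or 4 of si-control or replicate 1 or 2 of si-control + IFN, padj up to 0.118). Ccn2, which encodes a matrix-associated protein, fell in si-control with TNF (−1.37 ± 0.20, padj = 8.44e-06) and TNF + IFN (−0.53 ± 0.20, padj = 0.0323), and in si-dnmt with TNF (−1.17 ± 0.20, padj = 0.000107), IFN (−0.84 ± 0.20, padj = 0.00555) and TNF + IFN (−1.32 ± 0.20, padj = 5.88e-06). For Ccn2, leaving out 1 library ended the call of TNF + IFN in si-control (without replicate 1 or 2 of si-control or replicate 3 or 4 of si-control + TNF + IFN, padj up to 0.132). A call of Ccn2 was gained on leaving out 1 library for si-dnmt against si-control with TNF + IFN (without replicate 3 or 4 of si-control + TNF + IFN, padj down to 0.0178). Ccn2 gained a call with the replicate block for si-dnmt against si-control with TNF (0.52, padj = 0.0278) and IFN in si-control (−0.50, padj = 0.0399). Tmem100, an ALK1 target gene, had too few counts to be tested.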

How the data were processed

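RNA from 32 libraries (8 groups of 4) was measured. The authors deposited featureCounts gene counts, with no normalisation, per library and as a merged table; the 2 sets held the same values, and the merged table gave the gene symbols. The submitters' processing notes name cutadapt 4.9, FastQC 0.12.1, MultiQC 1.27.1, featureCounts and DESeq2; the sources used here do not give the aligner, genome build, annotation or strand setting, so reads of overlapping or antisense genes cannot be told apart. Libraries were grouped by their labels, which spell 1 group si-dnmtl + TNF, read as si-dnmt. The study calls the 4 libraries of a group biological replicates of the same line, so p-values measure the spread between these libraries.

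Counts of all genes were fitted with edgeR 4.0.16 (R 4.3.3) as 8 group means. Genes were kept by filterByExpr at a minimum count of 10, which left 15254 genes and all 40 members, and scaled by TMM (factors 0.88 to 1.091). Contrasts were tested with the quasi-likelihood F test, two-sided, with Benjamini-Hochberg adjustment over all genes tested; errors of log2 fold changes are standard errors. CPM are TMM-scaled, and lengths are unions of GENCODE M21 exons. Count ratios with an exact Poisson interval replace a fold in the text where a group held at most 3 counts in every library. The fit was tested on simulated data for the siRNA comparison without cytokine. The simulation had the same spread for every gene and no difference between sets of replicates. It therefore does not cover the split between sets seen here.

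Members and lists were chosen with earlier results of these data known. Values in every library are given for a fixed set of members and for members called with a log2 fold change of 1 or more in size; genes of the wider list are named by a fixed set and by the 2 largest calls in each direction of each siRNA comparison, and 1 gene of that set is not reported here. Alternatives were DESeq2 size factors, the DESeq2 1.42.0 Wald test, no low-count filter, a replicate block, the compared groups alone, replicates 1 and 2 or 3 and 4 alone, and leaving out each library; those for the wider list were chosen after seeing the data. Replicate numbers come from the labels: in 112 of 112 pairs of libraries with the same number, deviations from the group means correlated above 0.1 (range 0.297 to 0.617, median 0.415). The median was also 0.409 for the other number of the same set (1 with 2, 3 with 4) and −0.41 between sets. Of the 32 libraries, 24 correlated best with their own number. The values thus show 2 sets of replicates and hardly tell pairing by number from membership of a set. The main fit has no block for either, and the fit with the replicate block is an alternative.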

Additional observations from a re-analysis of the deposited data

Results flagged for a closer look

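A library was set apart where its gap to the nearest of the other 3 exceeded Dixon's limit for 4 samples. This was examined in 317 pairs of member and group and held in 5, and chance alone marks about 1 in 20. Acvr2a was 22.8 CPM in si-control + IFN replicate 4, below 27.0 to 27.9 CPM in the others. Acvr2b was 0.418 CPM in si-control + TNF replicate 4, below 1.33 to 1.41 CPM. Smad2 was 81.1 CPM in si-control replicate 2, above 67.6 to 69.5 CPM. Smad6 was 18.7 CPM in si-control + IFN replicate 4, above 13.9 to 14.2 CPM. Bambi was 4.62 CPM in si-dnmt + TNF + IFN replicate 1, above 2.94 to 3.18 CPM.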

How the results depend on the processing

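With DESeq2 size factors all 13 counts of members called stayed within 1.5 times those reported. The DESeq2 Wald test called 8 in place of 5 members for IFN in si-dnmt and 1 in place of 0 for the interaction with TNF + IFN. For si-dnmt against si-control with TNF, 5 in place of 8 were called both with no low-count filter and with the compared groups alone. With the replicate block the counts were 21, 18 and 14 for the siRNA comparisons with TNF, IFN and TNF + IFN, 18 and 14 for IFN in si-control and si-dnmt, and 2 for the interaction with TNF + IFN; the calls of single members that it added are given beside each member, and it changed no other call of a gene given with values in every library. In replicates 1 and 2 alone 17, 17 and 11 members were called for the siRNA with TNF, IFN and TNF + IFN, 25 for TNF in si-control, 22 and 18 for IFN in si-control and si-dnmt, and 3, 3 and 4 for the interactions. In replicates 3 and 4 alone these were 19, 24, 20, 29, 17, 13, 13, 1 and 11, with 22 for the siRNA without cytokine. Shares of all genes called rose as well in these fits, to 16.1% to 44.4% for these comparisons of 2 groups. Leaving out 1 library gave 7 to 11, 3 to 8, 9 to 10 and 2 to 6 members for the siRNA comparisons without cytokine, with TNF, IFN and TNF + IFN, 15 to 17, 5 to 10 and 21 to 22 for the cytokines in si-control, 12 to 15, 4 to 6 and 19 to 22 in si-dnmt, and 0, 0 and 0 to 1 for the interactions. Shares of all genes called for the siRNA comparisons were lower in these fits too. In that order they were 12.8% to 17%, 14.4% to 18.6%, 15.1% to 19.3% and 13.4% to 15.8%. In the fit of all libraries they were 18.5%, 20%, 20.3% and 17.7%.

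Among calls of single members and the siRNA differences followed for 9 members, the sign changed against the fit of all libraries for Fst with si-dnmt under TNF (0.12 in replicates 1 and 2 alone) and for Tgfb2 with si-dnmt under TNF + IFN (−0.20 in replicates 3 and 4 alone). Over all 400 pairs of member and comparison the 2 sets of replicates had opposite signs in 80, of which 1 was called over all libraries, and in 5 of the 80 both sets were called, for Tgfb1, Tgfbr3 and Acvrl1. The cause was not tested. Depth limits Grem1 in si-dnmt with a cytokine and in si-control with IFN or TNF + IFN, Smad9 in si-control with TNF + IFN and Bmp2 without cytokine, where groups held few counts.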
